A study of Mus musculus with 1012 samples.

Results

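The transcripts of 4 ID proteins (Id1, Id2, Id3 and Id4) and of the 2 inhibitory SMADs (Smad6 and Smad7) were followed through every cell state of a mouse single-cell study. The 6 genes were chosen by name, not by their values, and are 6 of the 30452 features of the deposited count table. The data are 1012 single-cell RNA-seq libraries. In Live-seq, a small volume of cytoplasm was aspirated from a living cell with a hollow force-microscopy probe and sequenced. Whole cells of the same kinds were lysed and sequenced for comparison, and IBA cells were sequenced after such a biopsy had been taken.

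ID proteins have a helix-loop-helix domain but no basic region, so they pair with E proteins and other basic helix-loop-helix factors and keep them off DNA. They are widely known as direct targets of bone morphogenetic protein (BMP) signalling, in which BMP receptors phosphorylate SMAD1, SMAD5 and SMAD9, which enter the nucleus with SMAD4. SMAD6 and SMAD7 are targets of the same family of signals and act back on the receptors as brakes, SMAD6 mainly on the BMP branch and SMAD7 on both the BMP and the TGF-beta branch.

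All positions are from GENCODE vM21 on GRCm38. Id1 (ENSMUSG00000042745) lies at chr2:152736251-152737410 on the plus strand, Id2 (ENSMUSG00000020644) at chr12:25093799-25097140 on the minus strand, Id3 (ENSMUSG00000007872) at chr4:136143497-136145755 on the plus strand and Id4 (ENSMUSG00000021379) at chr13:48261228-48266026 on the plus strand. Smad6 (ENSMUSG00000036867) lies at chr9:63953076-64022059 on the minus strand and Smad7 (ENSMUSG00000025880) at chr18:75367529-75395935 on the plus strand. All 6 are protein-coding, and counts are over their exons. In this annotation Id4 overlaps the antisense genes A330033J07Rik and Gm49291, and counting took no account of strand. The authors counted over an Ensembl release, and whether it holds these antisense genes was not examined. The union mode of counting leaves out reads over exons of more than 1 annotated gene. Such reads are missing from Id4 if that release has the overlap, and elsewhere reads of either strand count alike.

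RAW cells are the mouse macrophage line RAW264.7. Apart from 12 wild-type cells they were of RAW-G9, a single clone that carries mCherry under the Tnf promoter and an EGFP-Rela fusion protein, so that both the untreated (RAW_Mock) and the lipopolysaccharide-treated (RAW_LPS) groups carry these transgenes. LPS is a bacterial cell wall component sensed by macrophages, and its stated dose differs between the sources and is not given here. IBA is a line of brown preadipocytes from interscapular brown fat of young male C57BL6/J mice, untreated throughout. ASPCs are primary adipose stem and progenitor cells from subcutaneous fat of female C57BL/6J mice 7 to 10 weeks old, taken before (ASPC_Pre) or 2 days after (ASPC_Post) induction with the adipogenic mixture labelled DMIR. The ASPCs that were sampled a first time and again later were picked among cells carrying a barcoded GFP reporter, and the number of animals behind them was not given in the sources used here. In the sampling experiment, IBA cells were collected 1 h (49 cells) or 4 h (43 cells) after the biopsy, beside 70 cells labelled 0 h, which the methods describe as controls that were not sampled.

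Counts of the cells of 1 state, technique and batch were summed, and each sum is 1 replicate. Live-seq gave RAW_Mock and RAW_LPS sums in 4 batches, IBA in 3, ASPC_Pre in 2 and ASPC_Post in 1, and whole cells gave the first 3 states in 3 batches, ASPC_Pre in 2 and ASPC_Post in 1. Levels are CPM, the counts of a gene scaled to a common total of counts per sum. Nothing says that batches were separate cultures or animals, so p-values measure the spread between batch sums only, and a lower level in a sum cannot tell fewer cells with the transcript from less of it per cell. Total counts per cell ran from 38451 to 2671609, with a median of 479962. The median number of genes detected per group of whole cells ran from 7807 to 9223.5 and that of Live-seq groups of over 1 cell from 3306 to 5694. The 10 macrophage markers summed to between 7852 and 11045 CPM in the whole RAW sums, and 10 mesenchymal markers to between 5068 and 17541 CPM in the whole IBA and ASPC sums. The macrophage list summed to at most 54.99 CPM in the whole ASPC sums and to 8.07, 25.8 and 606.6 CPM in the IBA sums. A single cell of 45 carries the last value, with 31779 CPM of macrophage markers and no mesenchymal marker, and the sum without it has 28.5 CPM. Adipoq had no count in either ASPC_Post sum. The Live-seq RAW_Mock sum of batch 6 stands apart. Its 8 cells had a median of 1536 genes detected, macrophage markers at 2934 CPM against 10912 to 13228 CPM in the other RAW_Mock sums, and no count of any of the 6 genes.

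The promoters of Id2, Id3 and Smad6 are shown because Id2 carries the clearest difference in these data, Id3 is the most abundant of the 6 and Smad6 holds a SMAD-type palindrome. Each is the RefSeq sequence (GRCm38.p6) from 250 bases before to 50 bases after the start site, read 5′ to 3′ along the gene's strand, with matches to GGCGCC, a sequence known to bind BMP SMADs, or to GTCTAGAC, the palindromic SMAD box, in capitals. Id2 lies at chr12:25096043-25096342 (minus strand), Id3 at chr4:136143572-136143871 (plus strand) and Smad6 at chr9:64022010-64022309 (minus strand).
Id2: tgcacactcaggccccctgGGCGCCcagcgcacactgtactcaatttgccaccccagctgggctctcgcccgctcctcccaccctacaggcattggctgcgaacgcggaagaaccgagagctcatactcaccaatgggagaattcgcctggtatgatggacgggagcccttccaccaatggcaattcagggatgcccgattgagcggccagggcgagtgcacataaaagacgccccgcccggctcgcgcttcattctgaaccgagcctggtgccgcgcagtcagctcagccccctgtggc
Id3: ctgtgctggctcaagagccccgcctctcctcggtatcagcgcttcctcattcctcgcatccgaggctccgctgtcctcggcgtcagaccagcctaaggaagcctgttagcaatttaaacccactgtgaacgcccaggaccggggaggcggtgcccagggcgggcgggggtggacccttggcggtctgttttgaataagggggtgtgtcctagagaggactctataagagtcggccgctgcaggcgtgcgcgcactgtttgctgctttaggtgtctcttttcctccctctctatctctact
Smad6: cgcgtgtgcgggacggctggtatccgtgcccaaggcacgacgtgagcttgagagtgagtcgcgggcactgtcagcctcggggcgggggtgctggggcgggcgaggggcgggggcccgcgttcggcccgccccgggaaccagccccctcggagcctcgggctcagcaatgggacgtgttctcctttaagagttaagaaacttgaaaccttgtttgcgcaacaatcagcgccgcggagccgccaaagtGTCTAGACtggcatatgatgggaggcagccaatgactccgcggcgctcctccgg

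Both motifs are palindromes, so 1 search covers both strands, and no match overlaps another. Id2 has GGCGCC with its first base at -231 from the start site, Smad6 has GTCTAGAC at -4, and Id3 has neither. The Id4 promoter has GGCGCC at -148. The promoters of Id1 and Smad7 were not examined, so nothing is said of their motifs. The Id2 and Id3 windows lie inside the gene spans given above, so their RefSeq start sites are not the outermost GENCODE ones. Of the 32851 promoters of this length in the table, 11.9% hold GGCGCC and 0.213% hold GTCTAGAC. The E-box CAGCTG, bound by basic helix-loop-helix dimers, is in 16.3% of promoters and occurs 1 time in the Id2 window. These matches describe letters, not bound sites.

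Id1, Id2, Id3, Smad6 and Smad7 were all lower in resting RAW macrophages than in IBA preadipocytes. In whole RAW_Mock cells Id1, Id2 and Id3 lay between 8.89 and 146.5 CPM, whereas in IBA they lay between 151.9 and 765.4 CPM. Id3, the ID gene with the highest CPM in 12 of the 12 whole-cell sums, had 127.05, 146.5 and 73.97 CPM in RAW_Mock (batches 8_8, 9_1 and scRNA). In the same batches IBA had 765.4, 631.6 and 511.75 CPM of Id3. Smad6 had 2.31, 2.11 and 0.728 CPM in RAW_Mock against 13.5, 6.55 and 14.1 CPM in IBA. The RAW_Mock and IBA sums did not overlap for these 5 genes, with RAW_Mock the lower, and they did not overlap in either direction for 44.3% of the 13566 genes tested.

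edgeR's quasi-likelihood test on the sums, with batch as a covariate, called a gene whose Benjamini-Hochberg adjusted p was under 0.05 and whose level changed by more than 1 on the log2 scale. RAW_Mock against IBA called 33.7% of genes, 21.8% as lower and 11.9% as higher in RAW_Mock. Of the 6 genes, 5 were called, all of them lower. On the log2 scale Id1 differed by -3.97 (SE 0.68, adjusted p = 0.00192), Id2 by -1.91 (SE 0.54, adjusted p = 0.0215) and Id3 by -2.59 (SE 0.29, adjusted p = 0.000195). Smad6 differed by -3.01 (SE 0.92, adjusted p = 0.0288) and Smad7 by -2.90 (SE 0.70, adjusted p = 0.0105). Id4 had an adjusted p of 0.0604, with 3 counts in RAW_Mock in all. Without the macrophage-like IBA cell, an alternative chosen after seeing the data, the same 5 genes were called. Without batch scRNA 2 of the 5 were called, with Id2, Smad6 and Smad7 at adjusted p-values between 0.105 and 0.112, and 4 of the 5 were called without batch 8_8 or 9_1.

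**Figure D1:**
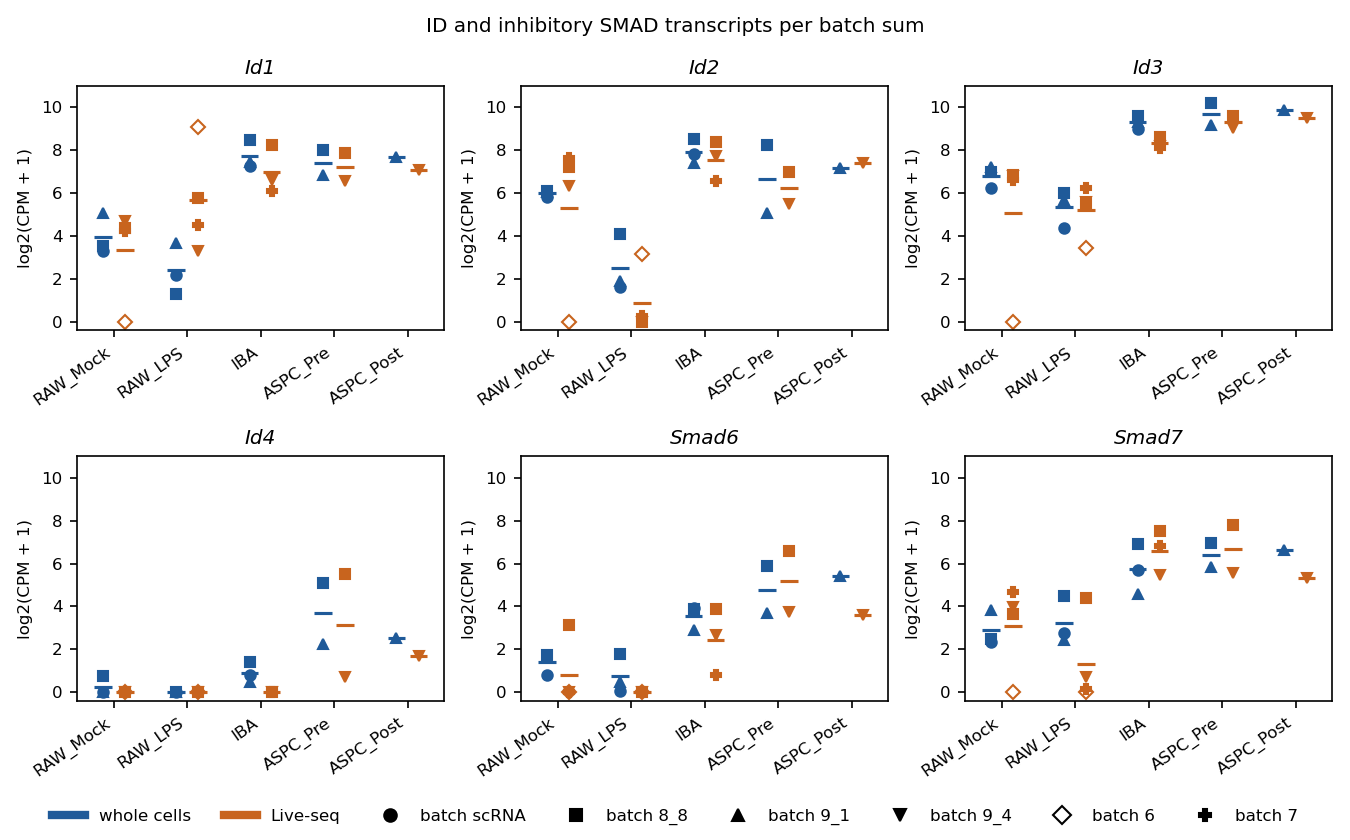
Level of each gene in every batch sum, as log2(CPM + 1), by state, for whole cells (blue) and Live-seq (orange). Symbols are batches, the open diamond is batch 6 and short lines are means over the sums. Id1, Id2, Id3, Smad6 and Smad7 sit lower in whole RAW_Mock cells than in IBA, Id2 drops again in RAW_LPS, and Id4 is above 2 CPM in ASPC sums alone.

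The adipose states came next in the order of levels. In whole cells mean Id3 was 882.2 ± 426.9 CPM (SD, n = 2) in ASPC_Pre, 930.7 CPM in the single ASPC_Post sum, 636.2 ± 126.9 CPM (SD, n = 3) in IBA, 115.85 ± 37.6 CPM in RAW_Mock and 44.1 ± 22.1 CPM in RAW_LPS. ASPC_Pre overlapped both other adipose states within its spread, while the single ASPC_Post sum lay above all 3 IBA sums. The same 3 states led for Id1, at 183 ± 98.7 CPM in ASPC_Pre, 204.4 CPM in ASPC_Post and 229.25 ± 114.2 CPM in IBA, and they overlapped there too. For Id2 the spread within ASPC_Pre, with 298.6 CPM in batch 8_8 and 32.6 CPM in batch 9_1, covered the levels of ASPC_Post and RAW_Mock, and IBA reached above it at 371.4 CPM in batch 8_8.

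Smad6 and Smad7 followed the same broad order. Mean Smad7 in whole cells was 89.4 ± 46.9 CPM (SD, n = 2) in ASPC_Pre, 65.0 ± 50.2 CPM (SD, n = 3) in IBA, 7.25 ± 5.08 CPM in RAW_Mock and 10.4 ± 9.24 CPM in RAW_LPS. Smad6 had 34.95 ± 32.7 CPM in ASPC_Pre and 11.4 ± 4.20 CPM in IBA, against 1.72 ± 0.862 CPM in RAW_Mock. Among adipose states neither gene separated ASPC_Pre from IBA beyond the spread of the batches.

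Id4 was the exception among the ID genes, being almost absent outside the ASPCs. Its level was 33.6 and 3.74 CPM in the whole ASPC_Pre sums and 4.76 CPM in ASPC_Post. In IBA it was 0.381 to 1.67 CPM, and a count was seen in 12 whole IBA cells (7.84% of them, exact binomial 95% interval 4.12 to 13.3%). No Live-seq IBA cell had a count (0 of 44, which allows a share of up to 6.82%), nor had any Live-seq RAW_Mock cell (a share of up to 2.91%). Such intervals and limits hold for counting error alone, because the reads carried no molecular identifiers and several can come from 1 molecule, and a limit from 0 biopsies concerns biopsies with a count, not cells with the transcript.

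IBA against ASPC_Pre, tested in whole cells in the same way, called 11.2% of genes, 7.47% lower and 3.69% higher in IBA. None of the 6 genes was called. Id4 differed by -3.66 on the log2 scale (SE 1.37, unadjusted p = 0.0308, adjusted p = 0.13) and Id2 by 1.14 (SE 0.65, adjusted p = 0.273), and the other 4 were between -0.96 and 0.32. Id4 was called with the newer quasi-likelihood fit of edgeR 4, where 19.4% of genes were called in place of 11.2%, and with limma on mean CPM of cells. Without batch 8_8 Id2 was called (log2 difference 2.32, adjusted p = 0.0291), and without batch 9_1 the share of genes called was 0.322%.

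The level moved with the batch in these states. In the whole-cell and Live-seq sums of IBA and ASPC_Pre, batch 8_8 had the highest level of the batches present for Id1, Id2, Id3 and Smad7 in 4 of 4 groups and for Id4 and Smad6 in 3 of 4. This was noticed in the data, and 690 genes (5.09% of those tested) had the highest level in batch 8_8 in all 4 groups. In whole ASPC_Pre cells Id2 was at 298.6 CPM in batch 8_8 and 32.6 CPM in batch 9_1, and Id4 at 33.6 and 3.74 CPM. In Live-seq ASPC_Pre, 88.3% of the Id2 counts of batch 8_8 were in 1 of 18 cells. The mesothelial or epithelial markers summed to 162 CPM in the whole ASPC_Pre cells of batch 8_8 and 36.5 CPM in those of 9_1, and to 213.97 and 36.8 CPM in the Live-seq batches 8_8 and 9_4. In batch 8_8 Krt19 alone of the 6 markers had counts in either technique, and the other 5, Msln and Upk3b among them, were at 0. The median number of genes detected per cell in 8_8 was 7951 in whole ASPC_Pre cells and 1638 in Live-seq, against 9614 and 6060 in the other batches. The part of these in the levels of the 6 genes was not tested.

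Relative to exon length, Id1, Id2 and Id3 stood above both SMADs in IBA and RAW_Mock, and Id4 below them. In whole IBA cells Id3 had 355.2 ± 70.8 CPM per kb (SD, n = 3), Id1 197.6 ± 98.4, Id2 104.2 ± 43.3, Smad7 14.4 ± 11.1, Smad6 3.55 ± 1.31 and Id4 0.242 ± 0.172 CPM per kb. In whole RAW_Mock cells Id3 led at 64.7 ± 20.97 CPM per kb, ahead of Id2 at 25.8 ± 2.54 and Id1 at 14.7 ± 11.2 CPM per kb, and both SMADs were under 2 CPM per kb. Id2 thus stood above Id1 on average in RAW_Mock and below it in IBA, but the batches overlapped in both states.

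Over the 12 whole-cell sums, levels of the 6 genes as log2(CPM + 1) rose and fell together to differing degrees, as a description of sums that share batches and cell types. Pearson's r was 0.94 for Id1 with Id3, 0.94 for Id3 with Smad6 and 0.93 for Smad6 with Smad7. It was lowest, at 0.52, for Id2 with Id4. The genes tested whose profile over these 12 sums was most like that of a member were Runx2, Tpst2 and Scoc for Id1 (highest r 0.97), Foxj2, Tedc2 and Nt5dc2 for Id2 (0.93), and Tsen34, Gadd45g and Ak1 for Id3 (0.97). They were Adamts9, Parvaos and Cdh13 for Id4 (0.97), Mtch1, Zbtb20 and Gm37899 for Smad6 (0.97) and Tent5c, Adgra3 and Itpripl2 for Smad7 (0.96).

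Id2 fell with LPS in whole RAW macrophages. In whole cells its level was 67.5, 65.2 and 55.8 CPM in RAW_Mock (batches 8_8, 9_1 and scRNA) and 15.98, 2.68 and 2.03 CPM in RAW_LPS. The level was thus lower 4.22-fold, 24.3-fold and 27.4-fold within the 3 batches, and no RAW_LPS sum reached a RAW_Mock sum. A count of Id2 was seen in 93 untreated cells (59.2% of them, exact binomial 95% interval 51.1 to 66.999%) and in 17 treated cells (11.4%, 6.79 to 17.6%). These intervals pool the cells of the 3 batches and do not cover the spread between batches. The untreated share was 87.5% in batch 8_8, 60.9% in 9_1 and 53.7% in scRNA. With each cell thinned to 50000 counts, which leaves out 1 untreated cell, the pooled shares were 48.7% in untreated and 6.71% in treated cells. Cells with a count also had less of it, with a median of 64.3 CPM in untreated and 21.2 CPM in treated cells. Id2 is known in leukocytes as a regulator of lymphoid and dendritic cell fates.

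Id3 was also lower in every treated sum, at 62.2, 50.6 and 19.6 CPM against 127.05, 146.5 and 73.97 CPM in the untreated sums of the same batches. Id1 was lower within each batch, at 1.45, 11.9 and 3.53 CPM in RAW_LPS against 10.4, 32.0 and 8.89 CPM in RAW_Mock, but the ranges of the 2 groups overlapped. Id2 and Id3 are the members for which every RAW_LPS sum lay below every RAW_Mock sum, a pattern seen in 11.5% of genes. The inhibitory SMADs gave no such pattern. Smad6 had 2.31, 2.11 and 0.728 CPM in RAW_Mock and 2.42, 0.378 and 0.0339 CPM in RAW_LPS, the last from 1 count. Smad7 was higher in treated cells in batch 8_8 (21.1 against 4.62 CPM) and scRNA (5.76 against 4.02 CPM) and lower in batch 9_1 (4.43 against 13.1 CPM). Id4 had 3 counts in untreated and none in treated cells, too few for a fold.

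In the quasi-likelihood test of LPS in whole cells, 1.23% of 13566 genes were called, 0.310% as lower and 0.921% as higher. Of the 6 members, only Id2 was called. It fell by 3.76 on the log2 scale (SE 0.61, adjusted p = 0.0300). Id3 had a change of -1.35 (SE 0.28, unadjusted p = 0.000843, adjusted p = 0.0605) and missed the threshold, and Id1 had -1.37 (SE 0.62, adjusted p = 0.358). Smad6 had -1.59 (SE 0.95, adjusted p = 0.512) and Smad7 0.21 (SE 0.67, adjusted p = 0.992). The call of Id2 was lost when any 1 batch was left out, with an adjusted p of 0.0602 without batch 8_8, 0.120 without 9_1 and 0.201 without scRNA. It was 0.157 without batch in the model, and the changes lay between -4.51 and -3.20. Fewer genes were called in these fits, 0% without batch 8_8, 0.135% without 9_1, 0.0295% without scRNA and 0.258% without batch in the model. Without batch 8_8 the change of Id2 was -4.51 (SE 0.32), and its adjusted p equalled the lowest of all genes tested. Id3 passed the threshold under 5 alternatives, DESeq2 (adjusted p = 0.000598), the edgeR 4 fit (0.0272), limma on mean CPM of cells (0.0212), no filter on low counts (0.0277) and RAW sums alone (0.0301).

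Cytoplasmic biopsies gave the same direction for Id2. Id2 in Live-seq RAW_Mock was at 0, 196.3, 147.35 and 80.1 CPM in batches 6, 7, 8_8 and 9_4. In RAW_LPS of the same batches it had 11, 2, 0 and 0 counts, with the 11 counts (7.80 CPM) in a single cell of batch 6. With a treated sum without counts set to a floor of 3 counts, Id2 was 70.3-fold lower in batch 8_8 and 129-fold lower in batch 9_4. These folds are no lower limits, because they rest on 9 and 10 treated biopsies and on reads, not molecules. In batch 9_4, 4 of 12 untreated biopsies had an Id2 count, with 48.6% of the counts in 1 of them. In batch 8_8, 21 of 63 had one, and the median number of genes detected was 1856 in treated and 3400 in untreated biopsies. Batch 6, whose untreated sum has none of the 6 genes, runs the other way. A count of Id2 was found in 34 untreated biopsies (33.01% of them, 95% interval 24.1 to 42.97%) and in 2 of 39 treated ones (5.13%, 0.627 to 17.3%). These intervals pool the biopsies of all batches, batch 6 among them, and do not cover the spread between batches.

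Id3 in Live-seq was 0, 98.3, 115 and 110.1 CPM in RAW_Mock and 9.93, 73.3, 44.7 and 46.6 CPM in RAW_LPS, lower with LPS in 3 of 4 batches. For Id1, 1 treated biopsy held every count of batch 6 and made that sum 544.5 CPM, beside 21.5, 53.1 and 8.90 CPM in the other RAW_LPS sums and 0 to 24.6 CPM in RAW_Mock. Smad6 was counted in 6 untreated biopsies, all of batch 8_8, and in 0 of 39 treated ones (up to 7.69%). Smad7 was 0, 24.6, 11.6 and 14.5 CPM in RAW_Mock and 0, 0.101, 20.3 and 0.621 CPM in RAW_LPS, with all 29 counts of the treated batch 8_8 sum in 1 cell.

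No gene of 13454 was called for LPS in Live-seq by the quasi-likelihood test (0%), with 3.99% of genes at an unadjusted p below 0.05, 0 called by the edgeR 4 fit and 4.96% by DESeq2. Id2 had a change of -8.30 (SE 2.84, unadjusted p = 0.0137, adjusted p = 1), a fitted value that depends on the prior count where a sum has no counts, beside a median change of -0.48 over all genes tested. Without batch 6 it was -9.93 (SE 1.16, adjusted p = 0.158). DESeq2 called Id2 alone of the 6 (adjusted p = 1.1e-05). The other members had adjusted p-values of 1, with changes of 1.28 for Id1, -0.02 for Id3, -4.09 for Smad6 and -2.79 for Smad7.

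The difference between the LPS effects in Live-seq and in whole cells was tested as an interaction. It called 0 of 13566 genes (0%), with 4.96% at an unadjusted p below 0.05 and 3.01% called by DESeq2, none of the 6 genes among them. Id2 had the most negative difference, -4.09 (SE 2.37, unadjusted p = 0.104, adjusted p = 1), and -6.11 (SE 1.21, adjusted p = 0.155) without batch 6 of Live-seq. Id1 had 2.80 and Id3 1.29, both with an adjusted p of 1.

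A test of each member that rests on no count model compared log2(CPM + 1) within the 7 pairs of sums that hold both RAW groups in 1 technique and batch. Id2 was lower with LPS in 6 of 7 pairs, by a mean of -4.03 (SD 3.70), with p = 0.0469 in a two-sided exact sign-flip permutation test whose smallest possible p is 0.0156. Batch 8_8 gives a pair in each technique. With both changed in sign together, an alternative chosen after seeing the data, the exact permutation p of Id2 was 0.0625 (smallest possible 0.0312), so its place under 0.05 rests on taking them as independent. It is 1 of 6 such tests, and the p is not adjusted for them. Id3 was lower in 6 of 7 pairs as well, by a mean of -0.56 (SD 1.82, exact permutation p = 0.469). Batch 6 of Live-seq decides the value for Id3, which was -1.23 with an exact permutation p of 0.0312 over the 6 other pairs, or 0.0625 with those of batch 8_8 together, the smallest that 5 batches allow. The exact permutation p-values were 0.859 for Id1, 0.25 for Smad6, 0.375 for Smad7 and 1 for Id4. Leaving out any other single pair put the exact permutation p of Id2 between 0.0625 and 0.0938.

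**Figure D2:**
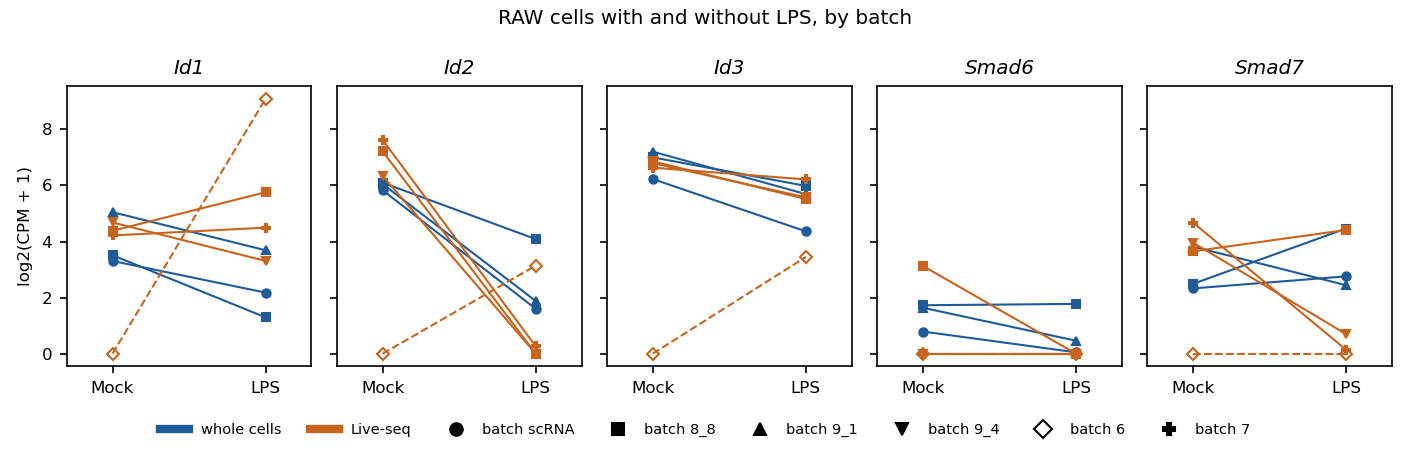
RAW cells without and with LPS, as log2(CPM + 1) of the batch sums, joined within each of the 7 pairs, for whole cells (blue) and Live-seq (orange). Id2 goes down in 6 of 7 pairs, and the dashed line, batch 6 of Live-seq, is the exception. Lines for Id1 and Smad7 cross.

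Of 95 other genes of the pathway, from ligands to transcription factors, 80 were tested for LPS in whole cells, and 0 were called lower, with 15 at an unadjusted p below 0.05 in either direction. Their median change was 0.02 beside -0.01 over all genes. In Live-seq 0 of the 80 were called, with 4 at an unadjusted p below 0.05. The 12 LPS-response markers, Tnf and Il1b among them, summed to between 11837 and 25577 CPM in treated whole cells and to between 422.7 and 2842 CPM in untreated ones.

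The 4 pairs of biopsies taken from the same RAW cell before and after LPS gave few counts. Id2 was counted in 2 of the 4 first biopsies, the higher at 216.9 CPM, and at 0 in the other 2, and it was at 0 in all 4 second biopsies. Id3 was higher in 2 second biopsies and lower in 2. Smad7 was counted in 1 first biopsy and in no second one. A pair of them has both biopsies labelled as the first, and its state labels were followed. Cells of so few dishes are no replicates, and no test was made. These biopsies are also part of the Live-seq sums of batches 7 and 9_4 above, so they are no separate evidence.

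The single group of wild-type RAW cells with LPS had a level of Id2 unlike that of the clone. Its 11 biopsies had 152.3 CPM of Id2, with counts in 5 of 11 cells and 56.1% of them in 1 cell, and 11.2 CPM of Id1 and 46.6 CPM of Id3. The only untreated wild-type cell had no count of the 6 genes. These cells are the whole of batch 5Reseq, so line and batch cannot be told apart, and they entered no test.

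Adipogenic induction of ASPCs was measured within 1 batch of whole cells (9_1) and 1 of Live-seq (9_4). Id2 was the member with a difference of over 2-fold within both. In whole cells it was 32.6 CPM before and 141 CPM after induction, a ratio of 4.33 (95% Poisson interval 3.99 to 4.70). In Live-seq it was 43.6 and 165.7 CPM, a ratio of 3.80 (3.49 to 4.13). A difference of at least 2-fold higher in both batches was seen in 7.31% of genes. The share of cells with an Id2 count was 47.5% before and 83.8% after in Live-seq, and 88.3% and 94.3% in whole cells, with both ASPC_Pre batches pooled in each technique. Within batch it was 51.2% and 83.8% in Live-seq and 84.1% and 94.3% in whole cells. With cells thinned to 50000 counts, and both ASPC_Pre batches pooled again, it was 34.4% and 78.4% in Live-seq and 71.7% and 80.0% in whole cells. Thinned shares were not computed within batch. Those intervals cover counting error within 1 batch each, not the spread between batches. In Live-seq, 24 of the 37 ASPC_Post biopsies were labelled as second extractions, from cells already sampled before induction. No ASPC_Pre biopsy was labelled so. Induction and an earlier biopsy are thus not fully separated in the Live-seq values, and the part of the earlier biopsy was not tested.

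The other members differed less. Id1 was 113.5 and 204.4 CPM in whole cells (ratio 1.80) and 95.1 and 136 CPM in Live-seq (1.43), and Id3 was 580.3 and 930.7 CPM (1.60) and 525.9 and 718.2 CPM (1.37). Id4 was higher after induction within both batches, from 0.629 to 2.1896 CPM in Live-seq and from 3.74 to 4.76 CPM in whole cells, where the interval of the ratio included 1 (0.933 to 1.735). In Live-seq 80% of its 35 counts after induction were in 1 cell. The values of Id1, Id2, Id3 and Id4 were thus higher in both batches, as were those of 29.1% of genes. For Id1, Id2 and Id3 the intervals of both ratios lay above 1. These intervals treat each read as a separate count, though several can come from 1 molecule, and do not cover the spread between cells. Smad6 was 3.53-fold higher in whole cells (11.8 and 41.7 CPM) but not in Live-seq (12.5 and 11.1 CPM, ratio 0.885, interval 0.719 to 1.09). Smad7 had ratios of 1.77 in whole cells and 0.840 in Live-seq.

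**Figure D3:**
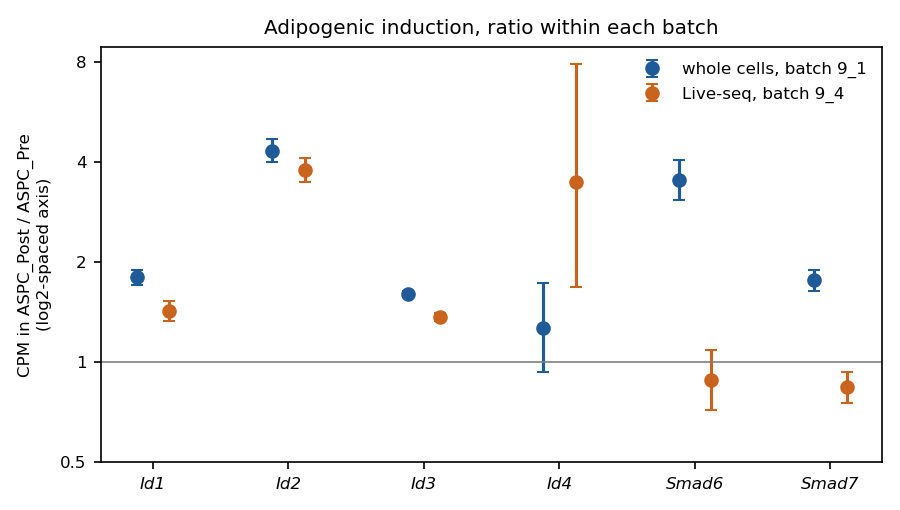
Ratio of CPM in ASPC_Post to ASPC_Pre within whole-cell batch 9_1 (blue) and Live-seq batch 9_4 (orange), on a log2-spaced axis. Bars are 95% Poisson intervals that cover counting error alone. Id2 is at 4.33 and 3.80, and Smad6 and Smad7 lie on opposite sides of 1 in the 2 batches.

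Taking the effect of induction as equal in both techniques gives 2 batches for a test, in which 4 genes of 13566 were called (0.0295%), 4 lower and 0 higher, with 4.56% at an unadjusted p below 0.05. None of the 6 members was called. Id2 had a change of 1.67 (SE 1.40), Smad6 0.68 (SE 1.27), Id4 0.64 (SE 1.39), Id1 0.41 (SE 1.32), Smad7 0.39 (SE 1.17) and Id3 0.38 (SE 0.71), all with an adjusted p of 1. Relative log expression scaling moved the median change of all genes from -0.02 to 0.19, and Id2 with it to 1.85. With voom and weights by technique Id2 had 1.43 (SE 0.49, adjusted p = 0.0834). Beside this, the adipogenic markers summed to 544.4 CPM before and 1176 CPM after induction in whole cells, and to 598.5 and 799.3 CPM in Live-seq batch 9_4. The list is not particular to adipose cells, as it summed to 482.3 to 1303 CPM in whole RAW_Mock cells. In whole ASPCs the mesothelial or epithelial markers summed to 36.5 and 0.290 CPM, and the median mitochondrial share was 3.64% and 8.71%. The part of these in the values of the 6 genes was not tested. Of the 80 other pathway genes 0 were called, with 3 at an unadjusted p below 0.05 and a median change of 0.19 beside -0.02 over all genes.

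The 9 ASPCs labelled as sampled a first time and again after induction had more Id2 in most second biopsies. These biopsies are also part of the Live-seq sums of batch 9_4 above, so they are no separate evidence. The pairs are those of the labels, and the barcodes of the cells were not analysed here. The paper counts fewer pairs with matching barcodes, so not all 9 are known to be from the same cell. The level of Id2 went from 401.7 to 468.6, from 80.2 to 136 and from 1.96 to 74.6 CPM in 3 cells with a count in both biopsies. In 3 more it went from 0 to 19.2, 82.0 and 225.8 CPM. It was higher in 6 of 9 second biopsies, lower in 1 (from 1.21 to 0 CPM) and at 0 in both in 2. Id3 was detected in all 18 of these biopsies and was higher in 6 second ones, and Id1 was higher in 5 and lower in 4.

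**Figure D4:**
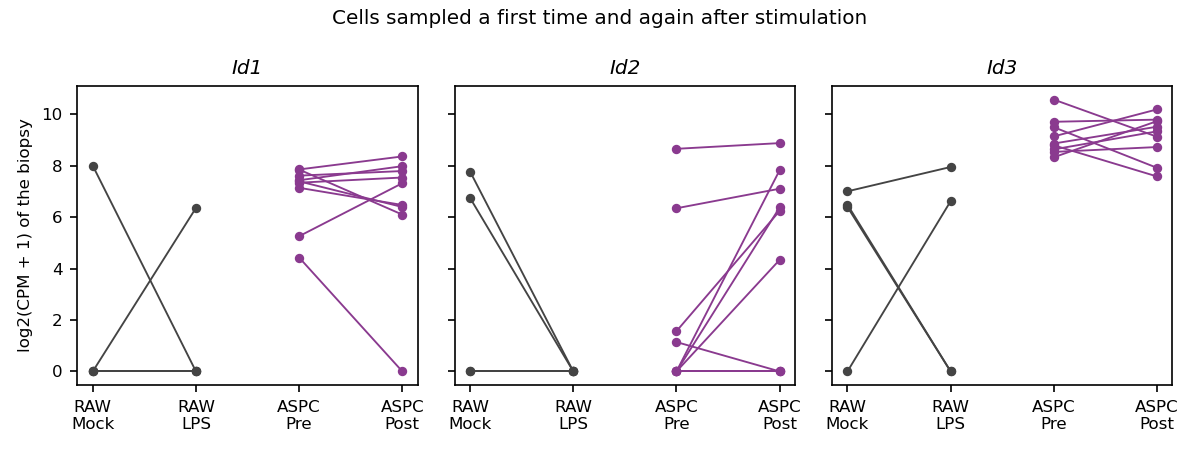
Id1, Id2 and Id3 in biopsies labelled as from the same cell before and after stimulation, as log2(CPM + 1), with lines joining the 4 RAW pairs (grey) and the 9 ASPC pairs (purple). Id2 is at 0 in all second RAW biopsies and higher in 6 of 9 second ASPC biopsies, and the lines of Id1 and Id3 run both ways.

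After a Live-seq biopsy the sums of IBA cells had less Id1, Id3 and Smad6, and Id2 and Smad7 within the fold of the 0 h sum. Each time is 1 sum of batch 8_1 without a replicate, so there is no test, and a gene counts as past the fold at a ratio of at least 2 or at most 0.5 to the 0 h sum with 10 CPM in at least 1 of the 2 sums. Id1 was at 336.9 CPM in the cells that were not sampled, 132 CPM at 1 h and 95.6 CPM at 4 h, ratios of 0.392 (95% Poisson interval 0.376 to 0.409) and 0.284 (0.268 to 0.300). Id3 was at 521.15, 380.9 and 210.65 CPM, ratios of 0.731 and 0.404 (0.389 to 0.420). Smad6 was at 22.5, 8.95 and 9.37 CPM, ratios of 0.397 (0.335 to 0.468) and 0.416 (0.344 to 0.499). Id1 and Smad6 were thus past the fold at both times and Id3 at 4 h, all lower.

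Id2 was at 218.4, 228.5 and 247.6 CPM, ratios of 1.05 and 1.13 to the 0 h sum, and Smad7 at 219.9, 242.1 and 232.9 CPM, ratios of 1.10 and 1.06. Id4 had 9 counts at each time. Of the genes with enough signal, 4.33% were past the fold lower and 2.29% higher at 1 h, and 5.74% lower and 2.63% higher at 4 h. In single cells, Id1 was counted in 98.6% of cells at 0 h, 87.8% at 1 h and 86.0% at 4 h, and its median over cells was 305.9, 95.5 and 66.0 CPM. Id2 was counted in 72.9%, 91.8% and 95.3% of cells, and its median over cells was 1.55 times that of 0 h at 1 h and 1.35 times at 4 h. Smad6 was counted in 49 of 70, 18 of 49 and 21 of 43 cells. The median of Id3 over cells was 482.9, 354.98 and 177 CPM.

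Set beside the IBA sums of the 3 other whole-cell batches, Id1 lay below their range of 151.9 to 360 CPM at both times after sampling, and so did Id3, below 511.75 to 765.4 CPM. Smad6 after sampling was inside their range of 6.55 to 14.1 CPM, and it was the 0 h sum that lay above it. Smad7 was above their range of 23.3 to 121 CPM at all 3 times. By the methods, the cells of batch 8_1 were grown in small inserts and picked by dilution. Those of the other batches were trypsinized and sorted, so the ranges come from cells handled in another way. The median mitochondrial share was 4.52% at 0 h, 8.74% at 1 h and 9.01% at 4 h. The mesenchymal markers summed to 2614, 2850.5 and 2879 CPM, against 5068 to 14149 CPM in the other IBA batches. Whether the differences in handling or in mitochondrial share bear on these values was not tested.

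**Figure D5:**
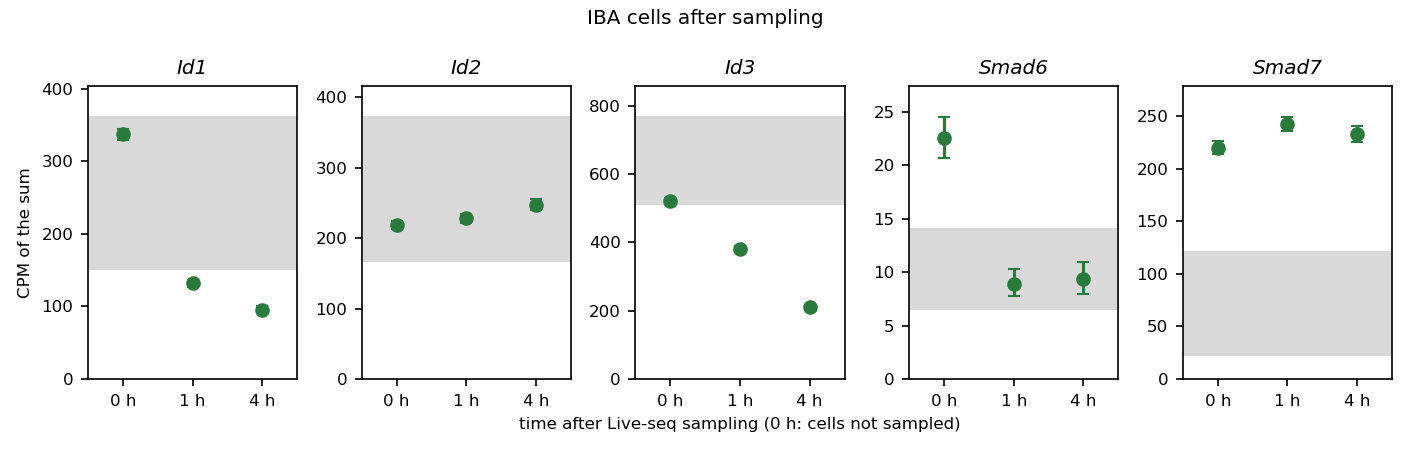
CPM of Id1, Id2, Id3, Smad6 and Smad7 in the sums of IBA cells not sampled (0 h) and 1 h and 4 h after a Live-seq biopsy, with 95% Poisson intervals that cover counting error alone. Grey bands are the range over the IBA sums of the 3 other whole-cell batches, whose cells were grown and isolated in another way. Id1 and Id3 leave their bands after sampling, and Id2 stays in it.

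Of the other pathway genes, 59 had 10 CPM or more at 0 h or 1 h, of which 3 were past the fold lower (Dlx2, Smad9 and Sox9) and 4 higher (Bambi, Gdf15, Grem1 and Smad3). At 4 h, 57 did, with 5 lower (Dlx2, Htra1, Inhba, Myc and Sox9) and 4 higher (Acvr1, Inhbb, Smad3 and Tgfbr1). Dlx2, a homeobox gene known as a BMP target, had 57.9, 26.8 and 15.7 CPM at 0 h, 1 h and 4 h, and Smad9, a receptor-regulated SMAD of the BMP branch, 49.05, 18.9 and 34.3 CPM. Bambi, a pseudoreceptor that dampens the pathway, was at 1.97, 12.9 and 8.05 CPM. Smad3, which carries TGF-beta signals, was at 7.79, 16.6 and 17.04 CPM. No single direction held across the pathway genes past the fold.

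Between cell types, where more genes were called of all those tested, more of the other pathway genes were called as well. IBA against ASPC_Pre called 3 of 80 higher and 14 lower, among them the receptor genes Bmpr1b (log2 difference -10.23), Acvrl1 (-7.44) and Eng (-6.42), the secreted inhibitors Fst (-5.17) and Nbl1 (-3.87), and the ligand genes Inhbb (-2.73) and Tgfb3 (-2.71). Tgfbi (6.59) was called higher, and Ccn2 (-2.54) lower, and the median over the 80 was -1.04 beside -0.12 over all genes. RAW_Mock against IBA called 6 higher and 45 lower, with a median of -3.46 beside -0.21 over all genes. The 10 with the largest fitted difference, all lower in RAW_Mock, were Ccn2, Bmp1, Ets1, Twist2, Htra1, Tgfbi, Grem1, Dlx2, Ebf2 and Sox9. Where RAW_Mock has next to no counts these fitted values depend on the prior count and are not given.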

How the data were processed

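The authors demultiplexed reads with bcl2fastq 2.19.1, aligned read 1 to mm10 with STAR 2.6.1c, used HTSeq to count uniquely mapped reads over Ensembl genes regardless of strand, removed cells with few genes or a high mitochondrial share, and deposited 1 table of raw counts, without normalization or molecular identifiers.

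Here 20 genes detected in negative controls were dropped, as were 84 of ribosomal proteins, and counts were summed per state, technique and batch with at least 3 cells. edgeR 4.0.16 (TMM, glmQLFit, state and batch as covariates, Benjamini-Hochberg adjustment) tested genes that reached 2 counts in 15% of the cells of a whole-cell state and passed filterByExpr (minimum count 2, minimum proportion 0.05). DESeq2 1.42.0 and limma 3.58.1 in R 4.3.3 were alternatives. Batches pair the samples, since labels give a shared batch. Deviations of RAW_Mock and RAW_LPS from their means correlated at 0.287, 0.461 and 0.522 in whole cells and at 0.235, 0.0723, 0.0262 and 0.116 in Live-seq. The edgeR step was tested on simulated data for LPS in whole cells (13566 genes). Poisson intervals (95%) rest on a gene's own counts and exact binomial ones on the number of cells.

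The members and lists were chosen with earlier results of these data known. All 6 members are named in every comparison. Other pathway genes are named where called, at most 10 per comparison by size of change, and so are the 3 genes with the highest correlation to each member over the whole-cell sums. Those past the fold after sampling, and the LPS markers, were named after their values were seen. The result for 1 other pathway gene is not reported here.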

Additional observations from a re-analysis of the deposited data

Results flagged for a closer look

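In Live-seq RAW cells, 9 sets of 4 batch sums (1 gene in 1 group each) were examined for a sum far from the other 3 by Dixon's criterion, and 5 had such a sum. Chance alone meets the criterion in about 1 in 20 sets of normally distributed values. Several of these sets hold sums of 0, so that rate does not apply to them, and the 5 are a description only. In batch 6, the RAW_LPS sum had 544.5 CPM of Id1, all of it from 1 of 4 cells, and 7.80 CPM of Id2, also from 1 cell, and both stood above the other RAW_LPS sums. The RAW_Mock sum of the same batch had 0 CPM of Id3, below the other RAW_Mock sums. In batch 8_8, the RAW_Mock sum had 7.74 CPM of Smad6 and was alone in having any count, with 52.1% of the counts in 1 of 63 cells. The RAW_LPS sum of batch 8_8 had 20.3 CPM of Smad7, from 1 of 9 cells.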

How the results depend on the processing

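Of the 6 genes, Id2 alone was called for LPS in whole cells, and 2 genes (Id2 and Id3) were called without the filter on low counts, with DESeq2, with the edgeR 4 fit, with limma on mean CPM and with RAW sums alone. Without the replicate block the number was 0, and leaving out 1 batch gave 0 to 0. DESeq2 called 1 of the 6 in Live-seq. IBA against ASPC_Pre had 0 members called, 1 with the edgeR 4 fit and with limma (Id4), and 0 to 1 leaving out a batch (Id2 without 8_8, adjusted p = 0.0291). RAW_Mock against IBA had 5, 3 without the replicate block, 6 without the filter and with DESeq2, which added Id4, and 2 to 4 leaving out a batch. The 7 pairs had 1 member at p under 0.05, 0 with both pairs of batch 8_8 flipped together and 0 to 2 leaving out a pair. Counts of members for adipogenic induction, the interaction and the sampled IBA cells were unchanged by the alternatives run, and all of these settings but the joint flip were planned.

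The sign of Id3 with LPS in Live-seq turned with relative log expression scaling (0.046), no filter (0.0052), DESeq2 (0.031) and RAW sums alone (0.071), that of Smad6 in the interaction with voom (0.63), and that of induction for Id4 (-2.82), Smad6 (-0.96) and Smad7 (-0.52) without the replicate block and for Id4 with limma (-0.64). Leaving out 1 batch turned the sign within these ranges. With LPS, Smad7 in whole cells ran from -0.58 (without 8_8) to 1.40, Id3 in Live-seq from -0.80 to 0.59 (without 8_8) and Id1 over the 7 pairs from -0.74 (without Live-seq 6) to 1.15. Smad6 ran from -5.59 to 0.023 (without 8_8) in Live-seq and from -5.25 to 1.64 (without Live-seq 8_8) in the interaction. Without batch 8_8 no Live-seq RAW sum had a Smad6 count. The values 0.023 (SE 9933) and 1.64 (SE 7515) thus measure no effect of LPS in Live-seq and are no reversal. For induction, Id4 ran from -0.82 (without Live-seq 9_4) to 1.56 and Smad7 from -0.10 (without whole-cell 9_1) to 0.72. In IBA against ASPC_Pre, Id1 ran from -0.097 (without 9_1) to 0.96, Id3 from -0.62 to 0.15 (without 8_8) and Smad6 from -1.77 to 0.065 (without 8_8). The causes were not tested.

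The share of genes called for LPS in whole cells went from 1.23% to 5.26% with DESeq2, 3.02% with the edgeR 4 fit, 3.37% with limma, 4.36% with RAW sums alone, 0.258% without the block and 0 (without 8_8) to 0.135% leaving out a batch, and for LPS in Live-seq from 0 to 4.96% with DESeq2. For induction it went from 0.0295% to 0.0663% with relative log expression scaling, 0.781% with DESeq2, 0.206% with edgeR 4, 1.16% with limma, 5.00% with voom and 0 to 0.13% leaving out a batch. IBA against ASPC_Pre went from 11.2% to 19.4% with edgeR 4, 21.2% with limma, 6.99% without the block and 0.322 (without 9_1) to 11.3% leaving out a batch, and RAW_Mock against IBA from 33.7% to 22.2% without scRNA. In Live-seq RAW cells, levels of Id1, Smad6 and Smad7 rest on few biopsies with a count.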
